A study of Mus musculus with 20 samples.

Results

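The wild-type optic nerve was compared with the wild-type corpus callosum across all genes, in 9 of the 20 mouse RNA-sequencing libraries of a study of Zdhhc9, an X-linked gene for a protein palmitoyltransferase. The 9 libraries were chosen by their labels alone, as 4 optic nerve libraries and 5 callosum libraries of wild-type genotype. The remaining 11 libraries, 5 of optic nerve and 6 of callosum, came from mice labelled Zdhhc9 knockout, which the series text calls a knockdown; they were used only to set each difference beside the same one in libraries that the wild-type comparison does not hold. No treatment was given besides the isoflurane anaesthesia before decapitation that all mice had, and neither strain nor age is given in the sources used here. Ddx3y, a gene of the Y chromosome, was read at 65.6 to 119 CPM (the count scaled to the depth of the library) and Xist at 0 in all 9 libraries. Brains and nerves were snap frozen, and the callosum was then cut out of coronal cryosections kept on dry ice, so its samples hold whatever lay along the cut. How much of each nerve was taken and whether its sheath was left on is not stated there. The labels do not say that each library came from its own mouse, so the p-values measure the spread between these samples, which may be partly technical.

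Both tissues are myelinated tracts. Oligodendrocytes wrap the axons in myelin, astrocytes buffer potassium and feed the axons, microglia survey the tissue, and endothelial cells with pericytes form the blood-brain barrier. The callosum joins the cerebral hemispheres and lies between the cortex, the striatum and the lateral ventricle, whose wall holds ciliated ependymal cells and the dividing progenitors of the subventricular zone. The optic nerve carries the axons of retinal ganglion cells, whose cell bodies lie in the eye. It develops from the optic stalk of the diencephalon, holds many fibrous astrocytes and is wrapped in pia, arachnoid and dura, the meninges, which are built by fibroblasts and contain their own macrophages. In bulk tissue, fewer cells of a type and less RNA per cell cannot be told apart, and this holds for every gene group that follows.

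Total estimated counts ran from 15401130 to 25375187 in callosum and from 22299837 to 26095622 in optic nerve. Library profiles (log2 CPM) correlated at 0.967 to 0.986 within optic nerve, 0.955 to 0.984 within callosum and 0.786 to 0.864 between the tissues, and the first principal component, with 79.3% of the variance, separated the tissues. Values are given in a fixed order, callosum libraries WT_CCg_28, WT_CCg_30, WT_CCg_685232, WT_CCg_717652 and WT_CCg_7198587, then optic nerve libraries WT_ON_700858, WT_ON_701297, WT_ON_717652 and WT_ON_719857. The labels number the callosum libraries in 2 formats, 2 of them with 2 digits and 3 with 6 or 7 digits, while all optic nerve numbers are long. Zdhhc9, intact in wild type, was read at 186, 183, 185, 198 and 152 CPM in callosum and 136, 145, 116 and 150.4 CPM in optic nerve, which is lower in the nerve without overlap (log2 fold change -0.40, SE 0.11, adjusted p = 0.0101). In knockout libraries it averaged 48.3 CPM in callosum and 42.6 CPM in optic nerve. Both tissue labels matched their markers: the forebrain factor Meis2 was high in callosum and the optic stalk factor Pax2 in optic nerve, with the values given below, and myelin genes were among the most abundant transcripts of every library. Optic nerve library WT_ON_717652 stood apart by its neuronal transcripts (summed CPM of the 22 genes of the neuron list 922, against 510.4 to 625 in the others). Optic nerve library WT_ON_719857 stood apart by haemoglobin and by low stalk and meningeal transcripts. Where leaving out either moved a value by over 1.5 times or changed a call, the value without it is given.

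Of 15771 genes tested, 2043 (13%) were higher in optic nerve and 2060 (13.1%) were higher in callosum at an adjusted p under 0.05 and a log2 fold change of at least 1, the rule behind the words higher, lower and called below. At an adjusted p under 0.05 alone, 7789 genes (49.4%) differed. In 3695 genes (23.4%) every optic nerve library was above every callosum library, and in 3110 genes (19.7%) the reverse held. All log2 fold changes are optic nerve minus callosum, and their median over all genes tested was -0.00030. Scaling to 12 oligodendrocyte transcripts in place of all genes moved that median by -0.29 and turned the split into 1563 higher in optic nerve and 2579 higher in callosum, so that small differences below depend on what they are measured against. Without the 2 callosum libraries with 2-digit numbers, 2068 and 2200 genes were called. Without optic nerve library WT_ON_717652 the calls were 2014 and 2165, and without WT_ON_719857 they were 2110 and 2086.

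**Figure D1:**
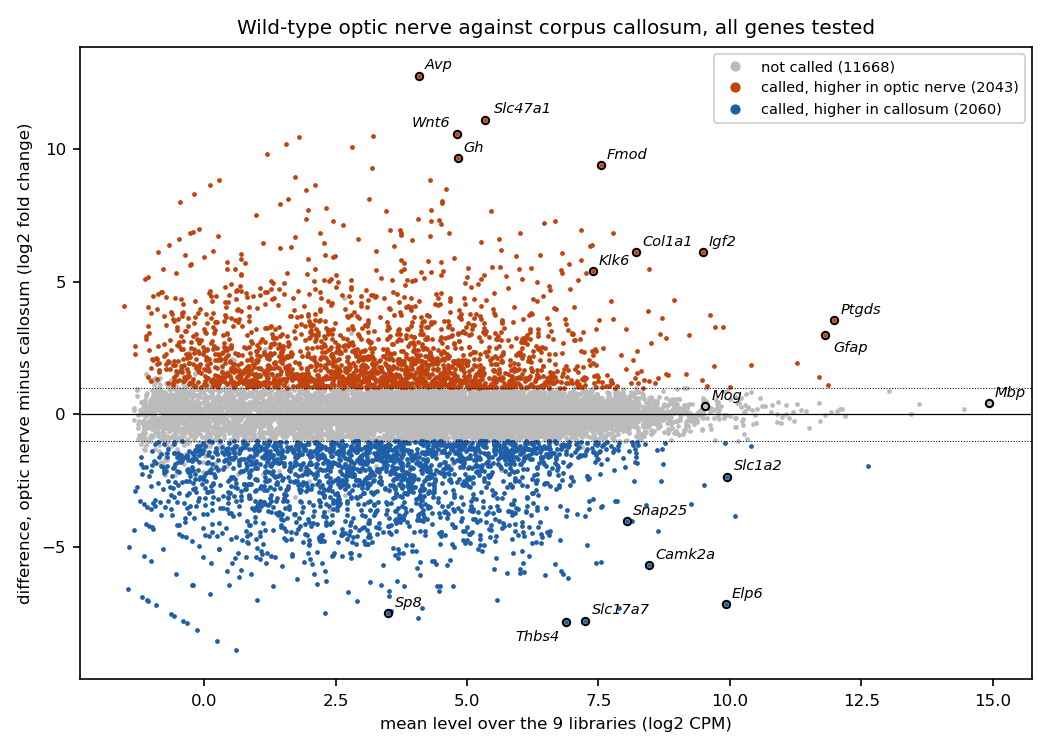
Difference between wild-type optic nerve and callosum (log2 fold change, vertical) against mean level (log2 CPM, horizontal) for the 15771 genes tested, each point a gene, coloured where called. Stromal, hormone and glial genes such as Slc47a1, Wnt6, Fmod, Klk6 and Gfap lie above the upper dotted line at 1, neuronal and forebrain genes such as Slc17a7, Camk2a and Sp8 lie below the lower one at -1, and the abundant myelin genes Mbp and Mog lie between the lines.

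The largest differences upward among genes at a mean level of 3 log2 CPM or more included those of Avp, Slc47a1, Wnt6, Prdm6, Gh, Fmod, Slc26a7, Cdh1, Oxt, Crabp2 and Foxc2. Avp, Gh and Oxt are genes of pituitary and hypothalamic hormones and are described with the hormones. Slc47a1 (ENSMUSG00000010122.13, chr11:61343401-61378345; all coordinates are of mm10) codes for a multidrug and toxin exporter and was read at 0, 0, 0.158, 0 and 0 CPM in callosum and 148, 80.9, 81.8 and 54.1 CPM in optic nerve; library WT_CCg_685232 was the only callosum library above 0, and the nerve was higher in all 4 libraries (log2 fold change 11.10, SE 0.57, adjusted p = 2.3e-07; 13.99 without library WT_CCg_685232). The anion exchanger gene Slc26a7 (8.83 (SE 0.41)) and Foxc2, a forkhead factor of mesenchyme (7.94 (SE 0.43)), were likewise under 0.4 CPM in every callosum library and at 24.3 CPM or more in every nerve. Prdm6, a transcription factor gene known from smooth muscle, had 1 count over the 5 callosum libraries and 1944 over the 4 nerves, a ratio of levels of 2315 (95% counting interval 415 to 91472, counting error only); without callosum library WT_CCg_7198587, which held that count, the fitted difference was 11.86. The 12 largest differences downward were those of Thbs4, Slc17a7, Ankrd63, Sp8, Neurod2, Ddn, Dlgap2, Sst, Hs3st2, Egr4, Myo5b and Itpka. They are described with the neurons and the ventricle wall.

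Genes were then read in lists of cell types and pathways, each set beside the whole: 13% of all genes were higher in optic nerve and 13.1% in callosum. The lists share members, and a list's name says what its genes are known for, not which cells were present.

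Few core myelin genes were called. Of the 32 genes of the pan-oligodendrocyte list, 2 were higher in optic nerve, none was higher in callosum, and 30 were not called; the median was 0.10. Scaled to oligodendrocyte transcripts, 12 of which belong to the list, the median was -0.16, 1 was lower and none was higher. Their summed level was 67555 to 108957 CPM in callosum and 97795 to 118779 CPM in optic nerve, so the ranges overlapped. Mbp, the gene of myelin basic protein, was read at 30806, 29729, 19550.3, 30187 and 24356 CPM in callosum and 32636, 39270.0, 33261 and 39030.3 CPM in optic nerve. All 4 nerves were above all 5 callosum libraries, by less than the fold threshold (log2 fold change 0.42, SE 0.16, adjusted p = 0.0492). Mog and Mag, genes of myelin surface proteins, gave 0.31 (SE 0.15) with an adjusted p of 0.113 and 0.09 (SE 0.14) with an adjusted p of 0.643; the value of Mag was -0.02 without optic nerve library WT_ON_719857 and -0.19 scaled to oligodendrocyte transcripts. The 2 called genes were Trf, the gene of the iron carrier transferrin (log2 fold change 1.12, SE 0.14, adjusted p = 7.5e-05), and Hapln2, a link protein of the node of Ranvier (log2 fold change 1.17, SE 0.19, adjusted p = 3.8e-04), at 0.86 and 0.93 scaled to oligodendrocyte transcripts. Gsn, the actin-severing protein gelsolin, was above callosum in every nerve at 0.88 (SE 0.15), and Opalin, an oligodendrocyte membrane protein, was below it in every nerve at -0.88 (SE 0.14). Opalin passed the fold threshold without optic nerve library WT_ON_719857 (-1.04).

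Genes of mature oligodendrocyte states gave larger single differences. Klk6 (ENSMUSG00000050063.17, chr7:43824499-43832030), a secreted serine protease gene that marks a mature state common in posterior white matter, was read at 10.4, 10.6, 4.85, 10.3 and 7.62 CPM in callosum and 377, 403, 322 and 361 CPM in optic nerve. The groups were far apart, a 41.9-fold difference (log2 fold change 5.39, SE 0.23, adjusted p = 4.2e-08). Of the 17 tested members of its list 8 were higher in optic nerve, 3 were lower and the median was 0.85. The lower ones included Rab3a, a presynaptic gene of neurons, and Ccp110, of the centriole. Cd59a, a complement inhibitor, gave 3.06 (SE 0.14); Cyp27a1, a sterol hydroxylase, gave 2.06 (SE 0.14); and S100b, a calcium-binding protein that astrocytes make too, gave 3.0 (SE 0.20). In the list of the other mature state, named for Ptgds and Grm3, 7 of 19 were higher in optic nerve, 1 was lower and the median was 0.50. Without optic nerve library WT_ON_719857, 3 were lower. Of the 19, 10 had a positive log2 fold change and 9 a negative one. Grm3 itself was among the negative ones at -0.84 and was not called, and the lower gene was Jph4 (-1.41). Ptgds (ENSMUSG00000015090.12, chr2:25466709-25470046), the prostaglandin D synthase that oligodendrocytes and meningeal cells both make, was read at 861, 877, 494, 692 and 569 CPM in callosum and 8410.3, 8935, 9716 and 5749 CPM in optic nerve. Library WT_ON_719857 held the lowest of the nerve values, and it was still above every callosum library (log2 fold change 3.55, SE 0.22, adjusted p = 4.4e-07). The lipid carriers Apod (1.87 (SE 0.15)) and Apoe (1.42 (SE 0.14)) were higher as well. Several of these genes are also expressed by astrocytes or fibroblasts, whose lists are given below; their part in these differences was not tested.

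Earlier stages of the lineage gave a few calls in each direction. Their shares lay near those of all genes, 13% higher in optic nerve and 13.1% higher in callosum. Among 19 genes of newly formed oligodendrocytes, 1 was higher in optic nerve, 3 were lower and the median was -0.18; scaled to oligodendrocyte transcripts, 6 were lower. The calcium-sensing receptor gene Casr (log2 fold change -2.84, SE 0.27, adjusted p = 9.0e-06) and the zinc transporter Tmem163 (-1.14 (SE 0.15); -0.99 without optic nerve library WT_ON_700858) were lower. Bmp4, a growth factor made by newly committed cells and by other tissues, was higher (log2 fold change 1.78, SE 0.18, adjusted p = 1.5e-05). Fyn, the kinase that starts local translation of myelin protein, lay under the fold threshold at -0.89 (SE 0.10) and past it (-1.18) scaled to oligodendrocyte transcripts. In the precursor list, 3 of 21 were higher and 4 lower, with a median of 0.18. The receptor gene that defines precursors, Pdgfra, was read at 112, 87.3, 91.2, 96.7 and 86.8 CPM in callosum and 187, 192, 153 and 164 CPM in optic nerve and did not overlap (log2 fold change 0.88, SE 0.11, adjusted p = 5.6e-05); fibroblasts express it too. The proteoglycan Cspg5 was lower (log2 fold change -1.32, SE 0.09, adjusted p = 1.2e-06) and the cyclin Ccnd1 higher (log2 fold change 1.44, SE 0.11, adjusted p = 2.4e-06). Dcn, also higher on that list, is a fibroblast gene and is given with the fibroblasts. Of 23 lineage transcription factors, 1 was higher and 4 were lower; the lowest was Sox11, of immature neurons and progenitors (log2 fold change -3.69, SE 0.24, adjusted p = 6.9e-07). It is also expressed in the subventricular zone, which borders the callosum.

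Genes of cholesterol synthesis and uptake mostly lay above callosum by less than the fold threshold. Of 25 genes, 2 were called higher in optic nerve (1 without callosum library WT_CCg_7198587, none without optic nerve library WT_ON_719857) and none lower, while 19 were above callosum at an adjusted p under 0.05 alone, where 25.7% of all genes were; 24 of the 25 had a positive log2 fold change and the median was 0.65. Hmgcs1, the synthase that precedes the rate-limiting step, was read at 597, 579, 452, 501 and 441 CPM in callosum and 1012, 1062, 908 and 1265 CPM in optic nerve (log2 fold change 1.05, SE 0.13, adjusted p = 7.7e-05). It was under the fold threshold without optic nerve library WT_ON_719857 (0.93), scaled to oligodendrocyte transcripts (0.77) and without callosum library WT_CCg_7198587 (0.99). Nsdhl (0.65 (SE 0.08)) and the squalene epoxidase Sqle (0.79 (SE 0.12)), enzymes of the pathway, did not overlap between the tissues. Among 28 genes of sphingolipid and fatty acid synthesis none was higher, 1 was lower (2 without optic nerve library WT_ON_717652) and the median was 0.27, or -0.02 scaled to oligodendrocyte transcripts.

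**Figure D2:**
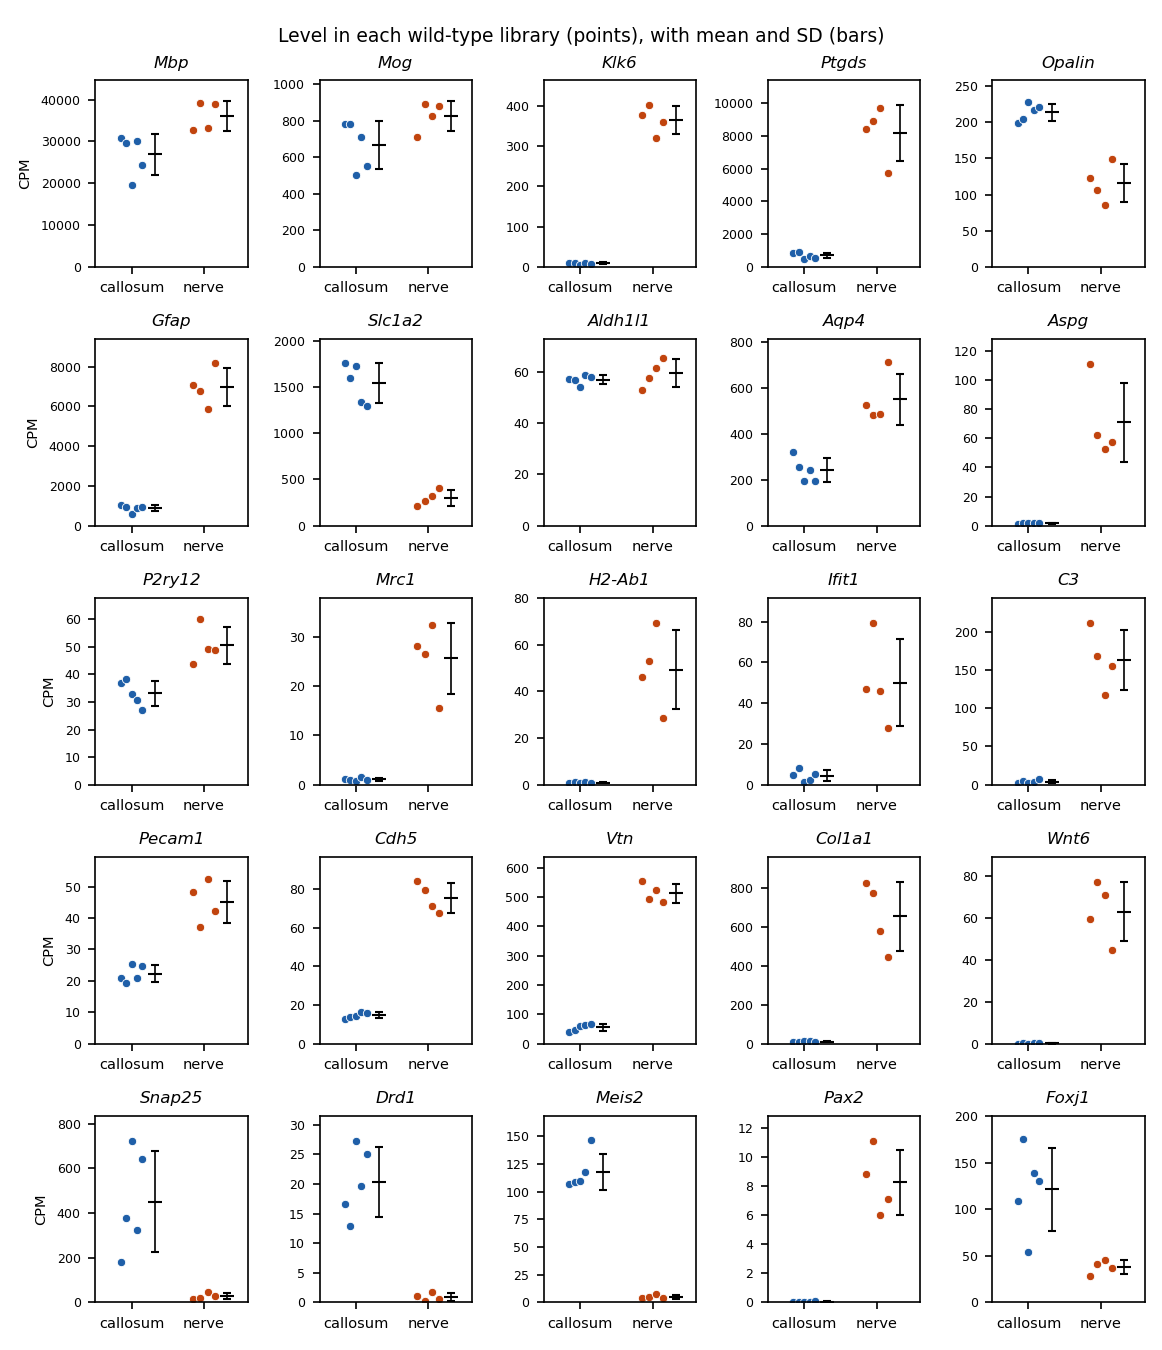
Level (CPM, vertical axis from 0, a scale per gene) of 25 genes in each wild-type library, callosum in blue and optic nerve in red, with bars for the mean and SD. Mog and Aldh1l1 overlap between the tissues, Opalin, Slc1a2, Snap25, Drd1, Meis2 and Foxj1 are lower in every nerve library, and the other genes shown are higher in every nerve library.

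Astrocyte genes split by kind. The pan-astrocyte enzyme gene Aldh1l1 was read at 57.3, 56.9, 54.2, 58.8 and 57.9 CPM in callosum and 52.8, 57.7, 61.7 and 65.6 CPM in optic nerve, and the groups overlapped (log2 fold change 0.06, SE 0.08, adjusted p = 0.583; -0.01 without optic nerve library WT_ON_719857, -0.23 scaled to oligodendrocyte transcripts). Of 23 general astrocyte genes 6 were higher in optic nerve, 4 were lower and the median was 0.07. The glutamate transporter gene Slc1a2 (ENSMUSG00000005089.14, chr2:102658659-102790784) was read at 1757, 1601, 1723, 1336 and 1292 CPM in callosum and 209, 265, 324 and 410.0 CPM in optic nerve, lower in every nerve (log2 fold change -2.35, SE 0.20, adjusted p = 4.5e-06). Callosum samples were cut from sections that also hold cortex and striatum, and the part of their astrocytes in this fall was not tested. Unlike the general astrocyte list, 20 of 22 tested genes of fibrous and reactive astrocytes, of 23 listed, were higher in optic nerve and none was lower, with a median of 3.24. Gfap (ENSMUSG00000020932.13, chr11:102887336-102900912), the intermediate filament gene of fibrous astrocytes, was read at 1048, 941, 605, 889.9 and 919.9 CPM in callosum and 7102, 6755, 5870.2 and 8168 CPM in optic nerve, 7.92 times the callosum level (log2 fold change 2.99, SE 0.17, adjusted p = 2.8e-07). Aspg, an asparaginase gene, was read at 1.46, 1.57, 1.58, 1.56 and 1.64 CPM in callosum and 111, 62.5, 52.6 and 57.6 CPM in optic nerve and reached its highest value in optic nerve library WT_ON_700858 (log2 fold change 5.50, SE 0.24, adjusted p = 5.2e-08). S1pr3, a receptor for sphingosine 1-phosphate, gave 3.08 (SE 0.14); S100a6, a calcium-binding protein that meningeal cells also make, gave 3.40 (SE 0.18); and Cp, the copper oxidase ceruloplasmin, gave 3.60 (SE 0.19). The protease inhibitor Serpina3n (4.05 (SE 0.22)), complement C4b (3.73 (SE 0.20)) and the filament protein Vim (3.30 (SE 0.20)), list members outside the naming rule, were higher as well. Vim and S100a6 are also made by fibroblasts and endothelial cells, whose genes were higher in the same libraries; their part was not tested. Agt, which codes for angiotensinogen and was chosen after its value was seen, had the smallest adjusted p of any gene named here: 2.59, 1.72, 2.48, 3.01 and 3.07 CPM in callosum and 281, 282, 339 and 383 CPM in optic nerve (log2 fold change 6.95, SE 0.19, adjusted p = 6.1e-09).

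Potassium and water handling, a task of the astrocyte network, had 8 of 20 genes higher in optic nerve, 1 lower and a median of 0.83; scaled to oligodendrocyte transcripts, 4 were higher. The sodium pump subunit gene Atp1b2 (437, 454, 323, 420.2 and 344 CPM in callosum and 1638, 1324, 1245 and 1324 CPM in optic nerve; log2 fold change 1.81, SE 0.14, adjusted p = 1.8e-06) was higher in all 4 nerves. So were the gap junction gene Gjb6 (log2 fold change 2.45, SE 0.16, adjusted p = 7.1e-07) and Mlc1, a membrane protein of perivascular endfeet (log2 fold change 1.52, SE 0.12, adjusted p = 3.0e-06). The water channel gene Aqp4 was read at 319.8, 256, 195, 242 and 195 CPM in callosum and 524, 480.0, 485 and 713 CPM in optic nerve (log2 fold change 1.19, SE 0.17, adjusted p = 2.0e-04; 0.94 scaled to oligodendrocyte transcripts). Lactate and glycolysis genes differed less, with 3 of 21 higher, none lower and a median of 0.02: the glycogen phosphorylase Pygm (log2 fold change 2.72, SE 0.19, adjusted p = 9.5e-07) and the monocarboxylate transporter Slc16a1 (log2 fold change 1.42, SE 0.14, adjusted p = 1.1e-05), which endothelial cells and oligodendrocytes both use, were higher.

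Of 21 microglial genes 12 were higher in optic nerve, none was lower and the median was 1.16. At an adjusted p under 0.05 alone 20 were above callosum, where 25.7% of all genes were. The secreted protein gene Olfml3 gave 1.68 (SE 0.10), the complement component genes C1qa and C1qb gave 1.56 (SE 0.10) and 1.51 (SE 0.10), and Tmem119, a surface marker of microglia, gave 1.37 (SE 0.10). Aif1, which codes for the marker Iba1, was read at 3.85, 5.56, 4.77, 4.84 and 6.72 CPM in callosum and 10.6, 12.7, 12.2 and 13.8 CPM in optic nerve (log2 fold change 1.25, SE 0.17, adjusted p = 1.0e-04; 0.93 scaled to oligodendrocyte transcripts). P2ry12, the receptor of ramified microglia, was read at 36.7, 38.3, 32.9, 30.8 and 27.2 CPM in callosum and 43.8, 60.0, 49.3 and 49 CPM in optic nerve; it did not overlap between the tissues and stayed under the fold threshold (log2 fold change 0.61, SE 0.12, adjusted p = 0.00194).

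Border-associated macrophages live in meninges and vessel walls. Of 15 of their genes that passed the filter on low counts, of 19 listed, 14 were higher in optic nerve, none was lower and the median was 3.37. The mannose receptor gene Mrc1 (ENSMUSG00000026712.3, chr2:14229392-14332057) was read at 1.19, 0.96, 0.67, 1.6 and 0.901 CPM in callosum and 28.1, 26.5, 32.5 and 15.5 CPM in optic nerve (log2 fold change 4.59, SE 0.28, adjusted p = 4.0e-07). F13a1, a transglutaminase of tissue macrophages, was at or below 0.685 CPM in every callosum library and at 14.3 to 23.5 CPM in the nerves (log2 fold change 5.45, SE 0.27, adjusted p = 9.2e-08). The endocytic adaptor Dab2 (3.37 (SE 0.17)) and the transcription factor Maf (2.88 (SE 0.17)) were higher, as was Lyve1, a hyaluronan receptor named from the list outside the rule (6.83 (SE 0.49)). Optic nerve library WT_ON_719857 held the lowest nerve value of Mrc1, F13a1, Dab2 and Maf, and library WT_ON_717652 that of Lyve1. Summed over the list, callosum libraries held 46.6 to 55.9 CPM and optic nerves 252 to 393 CPM.

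Antigen presentation genes were higher in optic nerve in both classes. Of 14 tested genes of MHC class II and dendritic cells, of 15 listed, 11 were higher, none was lower and the median was 3.01. H2-Ab1, a class II chain gene, was read at 0.597, 1.06, 0.867, 1.18 and 0.82 CPM in callosum and 46.3, 53.3, 69.5 and 28.6 CPM in optic nerve (log2 fold change 5.74, SE 0.28, adjusted p = 1.1e-07). Its partners H2-Eb1 (7.31 (SE 0.36)) and H2-Aa (7.18 (SE 0.42)) and the invariant chain gene Cd74 (5.96 (SE 0.33)) followed the same order of nerve libraries, with WT_ON_717652 the highest and WT_ON_719857 the lowest. All 20 genes of MHC class I and interferon responses were higher, with a median of 2.33. The class I heavy chains H2-K1 (2.31 (SE 0.16)) and H2-D1 (2.46 (SE 0.17)), which share long stretches of sequence so that reads may be split between them, the peptide pump gene Tap1 (2.25 (SE 0.15)) and the loading factor gene Tapbp (1.83 (SE 0.09)) were among them. Beta-2 microglobulin, B2m, gave 2.22 (SE 0.18). Of interferon-stimulated genes, Ifit1 was read at 4.64, 8.34, 1.42, 2.36 and 5.33 CPM in callosum and 46.8, 79.4, 45.8 and 28 CPM in optic nerve (log2 fold change 3.52, SE 0.48, adjusted p = 1.6e-04), Ifit3 gave 3.10 (SE 0.38) and Isg15, the ubiquitin-like modifier, gave 2.72 (SE 0.31). Optic nerve library WT_ON_701297 was the highest of its group for all 3 of these, and the callosum libraries did not reach the lowest nerve value for any of them.

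Promoters of 6 of these genes are shown because the whole class I and interferon list moved in 1 direction and the class II chains held the largest differences in their list. All 6 hold a match to the letters searched, and no promoter of either list without a match is shown. Interferon-stimulated genes are known to be switched on through the interferon-stimulated response element, and class II genes through a set of boxes that includes the Y box. The letters searched were GAAANNGAAA for the first and CTGATTGG for the second, on both strands, in the 250 bases before the start of each gene in RefSeq (GRCm38.p6). The capitals mark matches on either strand, 5′ to 3′ along the gene, and each stretch ends 20 bases before the annotated start.
Ifit1, chr19:34640729-34640868, + strand: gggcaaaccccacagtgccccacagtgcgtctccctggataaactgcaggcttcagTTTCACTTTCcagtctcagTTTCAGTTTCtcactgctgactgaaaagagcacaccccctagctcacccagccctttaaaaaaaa
Ifit3, chr19:34583369-34583508, + strand: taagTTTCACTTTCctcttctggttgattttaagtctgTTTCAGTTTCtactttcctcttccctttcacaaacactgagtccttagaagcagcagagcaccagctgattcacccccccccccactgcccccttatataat
Isg15, chr4:156200839-156200978, - strand: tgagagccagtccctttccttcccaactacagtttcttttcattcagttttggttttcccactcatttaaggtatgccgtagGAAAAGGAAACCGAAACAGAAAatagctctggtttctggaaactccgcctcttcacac
B2m, chr2:122147527-122147666, + strand: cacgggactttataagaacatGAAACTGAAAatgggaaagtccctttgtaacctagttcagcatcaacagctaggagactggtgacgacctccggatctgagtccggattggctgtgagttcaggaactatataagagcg
H2-Aa, chr17:34287844-34287943, - strand: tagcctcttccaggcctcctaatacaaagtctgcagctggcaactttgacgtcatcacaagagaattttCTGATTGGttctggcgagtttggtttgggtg
H2-Eb1, chr17:34305747-34305846, + strand: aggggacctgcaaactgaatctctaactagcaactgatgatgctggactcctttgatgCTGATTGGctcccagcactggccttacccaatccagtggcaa
Of 27025 promoters, 823 (3.05%) held the first motif. It was found in 6 of the 15 promoters matched by symbol to the 20 genes of the class I and interferon list (40.0%), those of B2m, Bst2, Ifit1, Ifit3, Isg15 and Rsad2. The second motif was in 1097 promoters (4.06%) and in 2 of the 11 matched to the class II list (18.2%), those of H2-Aa and H2-Eb1. A match is a run of letters only and says nothing of whether a factor was bound in either tissue.

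Complement genes were higher in optic nerve from the initiating to the regulatory steps. Of 17 tested genes, of 20 listed, 16 were higher, none was lower and the median was 3.06. C3 (ENSMUSG00000024164.14, chr17:57203970-57228136), the central component, was read at 1.99, 4.14, 1.73, 3.08 and 6.72 CPM in callosum and 212, 169, 117 and 155 CPM in optic nerve (log2 fold change 5.51, SE 0.38, adjusted p = 1.8e-06). Serping1, the inhibitor of C1, was read at 4.24, 5.1, 5.6, 5.9 and 5.45 CPM in callosum and 327, 300.4, 255 and 192 CPM in optic nerve (log2 fold change 5.67, SE 0.18, adjusted p = 9.7e-09), and C2, a protease of the classical pathway, gave 5.04 (SE 0.26). C4b, given above, has a near-identical copy in the genome, so its counts are uncertain. Microglia, astrocytes, macrophages and fibroblasts all make complement proteins, and the lists of microglia, of fibrous and reactive astrocytes, of border-associated macrophages and of fibroblasts had more genes higher than lower in the same libraries; the part of each was not tested.

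Rare leukocyte genes were read at low levels. Of 16 tested genes, of 26 listed, of other leukocytes and mast cells, 8 were higher in optic nerve and 2 were lower. Against the 3 callosum libraries with long numbers alone, 14 were higher. The filter on low counts was run anew for that fit and passed 15953 genes, so the members tested may not be the same 16. The lower ones were the T cell genes Cd4 (-2.33) and Trbc2 (-2.61). The other T cell genes tested, Cd3d (0.88), Cd8a (1.19) and Trac (0.45), lay the other way and were not called. The count of lower genes was 1 without callosum library WT_CCg_7198587 or without optic nerve library WT_ON_700858. The mast cell protease Mcpt4 had 1 count over the callosum libraries and 129 over the nerves, a ratio of 154 (27.1 to 6113; fitted difference 7.97 without callosum library WT_CCg_7198587, which held that count), and the tryptase Tpsb2, outside the rule, had 0 and 132 counts, at least 52.1-fold higher. Each was seen in all 4 nerves, at 1.08 to 1.74 CPM for Mcpt4 and 0.996 to 2.1 CPM for Tpsb2.

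Of 20 pan-endothelial genes 10 were higher in optic nerve, none was lower and the median was 1.0; scaled to oligodendrocyte transcripts, 6 were higher. Cdh5 (ENSMUSG00000031871.8, chr8:104101625-104144511), the gene of VE-cadherin, was read at 12.5, 14, 14.1, 16.6 and 15.6 CPM in callosum and 84.5, 79.6, 71.1 and 67.5 CPM in optic nerve (log2 fold change 2.37, SE 0.11, adjusted p = 6.3e-08). That was the largest value on the list, and the smallest was 0.36, of Flt1. The clotting factor gene Vwf (2.10 (SE 0.13)) and the sialomucin Podxl (1.65 (SE 0.12)) were higher. Pecam1, an adhesion molecule of all endothelium, was read at 20.8, 19.2, 25.4, 21 and 24.8 CPM in callosum and 48.3, 37.3, 52.5 and 42.3 CPM in optic nerve and did not overlap (log2 fold change 1.02, SE 0.13, adjusted p = 5.8e-05), but it lay at the fold threshold, with 0.93 to 1.0 without any 1 of callosum libraries WT_CCg_28, WT_CCg_30 and WT_CCg_717652 or optic nerve libraries WT_ON_700858 and WT_ON_717652. Among 27 genes of the brain endothelial barrier 10 were higher, none was lower and the median was 0.76. The junction adaptor Cgnl1 (2.64 (SE 0.11)), the Wnt co-receptor Adgra2 (3.0 (SE 0.14)), Itm2a (2.27 (SE 0.13)) and the drug efflux pump Abcb1a (1.66 (SE 0.11)) had the smallest p. On the same list 23 genes had a positive log2 fold change and 4 a negative one. The 4 were Spock2 (-0.59), Slco1c1 (-0.52), Insr (-0.27) and Mfsd2a (-0.23), with 1 of them below callosum at an adjusted p under 0.05 alone. The tight junction gene Cldn5 was read at 41.6, 38.8, 42.7, 44.4 and 48.3 CPM in callosum and 65.2, 68.5, 79.9 and 79.7 CPM in optic nerve, above callosum in every nerve and under the fold threshold (log2 fold change 0.76, SE 0.10, adjusted p = 7.5e-05).

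Pericytes and smooth muscle cells wrap the vessels. In the pericyte list 10 of 18 genes were higher, none was lower and the median was 1.22. Vtn (ENSMUSG00000017344.4, chr11:78499091-78502324), the gene of vitronectin, was read at 38.3, 46.2, 61.3, 63.1 and 67.3 CPM in callosum and 554, 492, 524 and 482 CPM in optic nerve (log2 fold change 3.21, SE 0.17, adjusted p = 1.4e-07). The receptor gene Pdgfrb (log2 fold change 1.36, SE 0.11, adjusted p = 2.3e-06) and the aminopeptidase Anpep (4.28 (SE 0.23)), both also made by fibroblasts, were higher. Of 15 smooth muscle genes 8 were higher, 1 was lower and the median was 1.35. The filament gene Des (2.29 (SE 0.18)) and the contractile genes Tagln (3.46 (SE 0.40)) and Myl9 (1.84 (SE 0.22)) were higher in every nerve. Acta2, the smooth muscle actin gene, was read at 10.8, 24.3, 38, 27.8 and 16.5 CPM in callosum and 49.3, 29.1, 92.2 and 28.5 CPM in optic nerve and overlapped (log2 fold change 1.08, SE 0.42, adjusted p = 0.0571); it passed without callosum library WT_CCg_685232 (1.32) and without optic nerve library WT_ON_701297 or WT_ON_719857 (both 1.24).

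Fibroblast genes had the largest median of the lists shown. Of 25 genes 22 were higher in optic nerve, none was lower and the median was 5.10. In all 25 every nerve library was above every callosum library, which held for 23.4% of all genes. Col1a1 (ENSMUSG00000001506.10, chr11:94936224-94953042), a chain of type I collagen, was read at 5.24, 10, 13.2, 11.5 and 6.84 CPM in callosum and 827, 773, 578 and 444 CPM in optic nerve. Callosum libraries stayed at 13.2 CPM or less, and the nerve levels were 69.6 times higher (log2 fold change 6.12, SE 0.32, adjusted p = 1.9e-07). Col1a2 gave 5.46 (SE 0.22), the small proteoglycan Dcn gave 6.39 (SE 0.34), and Igf2, a growth factor that adult meninges express, was read at 12.3, 19.4, 34.6, 27.5 and 19.3 CPM in callosum and 1684, 1606, 1891 and 1131 CPM in optic nerve (log2 fold change 6.12, SE 0.31, adjusted p = 1.6e-07). Thbs2, a matrix glycoprotein (3.69 (SE 0.13)), Ogn, osteoglycin (7.19 (SE 0.27)), and Islr, a surface protein of mesenchymal cells outside the rule (6.32 (SE 0.28)), were higher as well. Among abundant genes, at a mean level of 8 log2 CPM or more, the 5 largest differences upward were Col1a1, Igf2, Col1a2, Fn1, which codes for fibronectin (4.30 (SE 0.26)), and Nbl1, a secreted antagonist of bone morphogenetic proteins (3.90 (SE 0.28)). The summed level of the fibroblast list was 884 to 1292 CPM in callosum and 5973 to 9078 CPM in optic nerve.

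Meningeal and arachnoid barrier genes were higher in 31 of 34 cases and lower in 1, with a median of 3.97. Wnt6 (ENSMUSG00000033227.7, chr1:74771892-74785322), a secreted signal of arachnoid cells, was read at 0, 0.0505, 0, 0.0762 and 0.041 CPM in callosum and 59.2, 77.1, 70.7 and 44.7 CPM in optic nerve (log2 fold change 10.57, SE 0.33, adjusted p = 9.7e-09). Slc13a4, a sulfate transporter, was read at 4.24, 6.57, 5.16, 5.9 and 6.15 CPM in callosum and 349, 366, 302 and 238 CPM in optic nerve (log2 fold change 5.80, SE 0.18, adjusted p = 9.7e-09). The epithelial cadherin gene Cdh1, of the arachnoid barrier, gave 8.50 (SE 0.30). Library WT_ON_719857 held the lowest nerve value of Wnt6, Slc13a4 and Cdh1, and each was still far above the callosum range. The 1 lower gene was Penk, an opioid precursor of striatal neurons as well as of meninges.

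Of 24 collagens 16 were higher, none was lower (1 without optic nerve library WT_ON_717652) and the median was 2.10. Of 21 basement membrane genes 15 were higher, none was lower and the median was 1.92, and the smallest p were those of Nid1, which links laminin to collagen (12.9, 12, 12.8, 15.8 and 12.6 CPM in callosum and 264, 227, 166 and 186 CPM in optic nerve; log2 fold change 3.99, SE 0.15, adjusted p = 2.7e-08), the collagen chain Col4a6 (4.37 (SE 0.21)) and the laminin chains Lama4 (3.42 (SE 0.17)) and Lamb2 (2.50 (SE 0.13)). Of 12 tested small leucine-rich proteoglycans, of 16 listed, 10 were higher and 1 was lower, with a median of 3.21. Fmod, fibromodulin, was read at 0.199, 0.808, 1.06, 0.495 and 0.41 CPM in callosum and 379, 467, 536 and 288 CPM in optic nerve (log2 fold change 9.39, SE 0.35, adjusted p = 3.1e-08). The lecticans, link proteins and tenascins, which build the matrix around axons and nodes, split into 7 higher and 6 lower of 21 tested, of 23 listed. Sparc, a collagen-binding protein (log2 fold change 3.28, SE 0.13, adjusted p = 3.8e-08), was among the former. Thbs4, thrombospondin 4, which astrocytes of the ventricle wall are known to make, was read at 278, 284, 110.1, 217 and 167 CPM in callosum and 1.31, 0.799, 0.984 and 0.569 CPM in optic nerve and was the largest fall among the 12 named (log2 fold change -7.82, SE 0.40, adjusted p = 2.0e-07).

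Transcription factors that pattern the embryonic brain separated the tracts. None of 23 forebrain factors was higher in optic nerve and 19 were lower, with a median of -4.12. Meis2 (ENSMUSG00000027210.19, chr2:115863064-116065839), a homeobox factor of the striatum and its progenitors, was read at 107, 109, 109.6, 118 and 146 CPM in callosum and 4.09, 4.58, 7.25 and 3.84 CPM in optic nerve (log2 fold change -4.58, SE 0.21, adjusted p = 6.3e-08). Sp8 (log2 fold change -7.48, SE 0.23, adjusted p = 9.7e-09), Lhx2 (-1.96 (SE 0.12)) and Dlx1 and Dlx2 (-5.94 (SE 0.39) and -5.16 (SE 0.32)), factors of the developing forebrain, were lower in every nerve, and Dlx1 gave -6.55 without optic nerve library WT_ON_717652. Emx2, of the dorsal telencephalon, was below callosum in every nerve at -0.89 (SE 0.22) and passed the fold threshold without optic nerve library WT_ON_700858 (-1.02) or WT_ON_701297 (-1.0). Conversely, 13 of 20 tested optic stalk and eye factors, of 23 listed, were higher and 1 was lower, with a median of 1.61. Pax2 (ENSMUSG00000004231.14, chr19:44756045-44837871), needed to close the optic fissure and kept in optic nerve astrocytes, was read at 0, 0, 0.0394, 0.0381 and 0.123 CPM in callosum and 8.84, 11.1, 5.99 and 7.11 CPM in optic nerve (log2 fold change 7.37, SE 0.46, adjusted p = 4.5e-07; 8.18 without callosum library WT_CCg_7198587). Foxd1 was read at 0.796, 1.36, 1.58, 1.26 and 0.942 CPM in callosum and 58.5, 54.8, 55.2 and 33.2 CPM in optic nerve (log2 fold change 5.38, SE 0.23, adjusted p = 4.2e-08), with optic nerve library WT_ON_719857 the lowest of its group, and the nuclear receptor Nr2f2 gave 3.79 (SE 0.21). The 1 lower gene was Otx2, given with the choroid plexus. Foxd1 and Nr2f2 are also genes of mesenchyme. Vax1, of the ventral stalk, was read at 0.995, 2.07, 1.26, 2.02 and 4.67 CPM in callosum and 4.94, 6.56, 4.47 and 6.92 CPM in optic nerve; the groups overlapped (log2 fold change 1.36, SE 0.39, adjusted p = 0.0137), and against the callosum libraries with long numbers it did not pass (1.07, adjusted p = 0.0602). Gbx2, a factor of the hindbrain boundary, was read at 0, 0, 0.0394, 0 and 0.123 CPM in callosum and 10.1, 10.4, 5.81 and 7.87 CPM in optic nerve (log2 fold change 7.69, SE 0.52, adjusted p = 7.8e-07; 8.97 without callosum library WT_CCg_7198587). It was 1 of 4 higher genes among 6 tested of 20 Hox and hindbrain genes listed; the others were the Iroquois factors Irx1, Irx2 and Irx3, while Irx5 was lower and was not called without any 1 of 6 libraries.

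Neuronal genes were lower in optic nerve. Of 22 general neuron genes none was higher, 19 were lower and the median was -3.32. Snap25 (ENSMUSG00000027273.12, chr2:136713453-136782428), a protein of synaptic vesicle release, was read at 183, 378, 725, 325 and 642 CPM in callosum and 16.7, 18.9, 47.1 and 27.6 CPM in optic nerve (log2 fold change -4.03, SE 0.49, adjusted p = 8.6e-05). Library WT_CCg_28 held the lowest callosum level and library WT_ON_717652 the highest nerve level, and the groups did not overlap. Summed over the list, the callosum libraries held 1963, 3242, 6407, 3472 and 6030.5 CPM and the optic nerves 510.4, 553, 922 and 625 CPM. The microtubule protein gene Map2 (-1.98 (SE 0.22)) and the kinase gene Camk2a (-5.68 (SE 0.64)) had the smallest p on the list, and Camk2a, Snap25, Agap2 (-4.03 (SE 0.41)) and Elp6 were among the 5 largest falls among abundant genes. Of 18 genes of cortical excitatory neurons 14 were lower and the median was -4.32; the 1 higher gene was Ccn2, a matrix signal that mesenchymal cells also make. Slc17a7, the vesicular glutamate transporter of the cortex, was read at 58.6, 219, 495, 235 and 359 CPM in callosum and 0.27, 0.336, 4.07 and 0.379 CPM in optic nerve (log2 fold change -7.77, SE 0.99, adjusted p = 1.1e-04), and the factor Neurod2 gave -7.41 (SE 0.93). In striatal projection neurons 14 of 17 genes were lower, none was higher and the median was -3.13, with the dopamine receptor genes Drd1 (16.6, 12.9, 27.3, 19.6 and 25 CPM in callosum and 1.08, 0.21, 1.74 and 0.522 CPM in optic nerve; log2 fold change -4.50, SE 0.47, adjusted p = 2.7e-05) and Drd2 (-6.31 (SE 0.45)) and the phosphodiesterase gene Pde10a (-4.47 (SE 0.30)). Interneuron genes were lower in 10 of 16 cases and higher in 2, the calcium-binding protein genes Pvalb and Calb2. Gad1, which makes GABA, was read at 94.9, 121, 232, 124 and 240.2 CPM in callosum and 0.888, 1.64, 20.4 and 4.93 CPM in optic nerve (log2 fold change -4.55, SE 0.85, adjusted p = 0.00135), the peptide gene Sst gave -6.99 (SE 0.77) and the cannabinoid receptor gene Cnr1 gave -5.08 (SE 0.46).

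The remaining large falls were genes of synapses and dendrites. Ddn, dendrin, was read at 201, 252, 700.1, 402 and 577 CPM in callosum and 2.08, 2.65, 4.74 and 1.23 CPM in optic nerve (log2 fold change -7.31, SE 0.57, adjusted p = 4.4e-06). Dlgap2, a scaffold of the postsynaptic density, gave -7.29 (SE 0.56), Ankrd63 gave -7.68 (SE 0.74), the heparan sulfotransferase Hs3st2 gave -6.84 (SE 0.87), the motor Myo5b gave -6.64 (SE 0.77) and Itpka, a kinase of dendritic spines, gave -6.48 (SE 0.63). Optic nerve library WT_ON_717652 was the highest nerve for each of these and for Slc17a7, Sst, Camk2a and Gad1. Without it the fitted difference was -9.71 for Slc17a7, -10.59 for Ankrd63, -8.70 for Dlgap2, -8.94 for Sst, -8.09 for Hs3st2, -7.95 for Myo5b, -7.38 for Itpka, -6.36 for Camk2a and -6.07 for Gad1. Neuron cell bodies are not part of either tract, and callosum samples were cut from sections that also hold cortex and striatum; how much of each was carried along was not tested.

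Retinal genes gave no single direction. Of 9 tested genes of retinal ganglion cells, of 14 listed, 3 were higher in optic nerve and 4 were lower; without optic nerve library WT_ON_701297, 2 were lower. Of 8 tested photoreceptor and other retinal genes, of 19 listed, 1 was higher and none was lower, and 1 was lower without any 1 of callosum libraries WT_CCg_28 and WT_CCg_30 and optic nerve libraries WT_ON_717652 and WT_ON_719857, while 2 were higher without optic nerve library WT_ON_701297. Node and paranode genes were lower in 9 of 23 cases and higher in 1, with a median of -0.70 and a lowest value of -4.61. Hapln2, given above, was the 1 higher. Among the falls with the smallest p were those of the sodium channel genes Scn1a (-3.94 (SE 0.37)) and Scn8a (-3.63 (SE 0.41)), which neurons make, and of the anchor protein gene Ank3 (-1.33 (SE 0.15)). Neuronal transcripts were higher in the same callosum libraries, and their part in these falls was not tested. Immediate early genes, which neurons switch on with activity, were lower in 9 of 18 cases and higher in 2. The lower ones included Egr3 (-4.34 (SE 0.37)), Npas4 (-4.26 (SE 0.39)) and Egr4 (-6.67 (SE 0.64); -8.74 without optic nerve library WT_ON_717652).

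Genes of the ventricle wall were lower in optic nerve. Of 17 genes of subventricular neuroblasts and dividing cells 16 were lower and none was higher, with a median of -2.45. Dcx, a microtubule protein of migrating neuroblasts, was read at 68.1, 55.1, 59.2, 55.2 and 42.7 CPM in callosum and 4.01, 7.94, 5.23 and 6.17 CPM in optic nerve (log2 fold change -3.26, SE 0.21, adjusted p = 5.1e-07). Of 17 ependymal genes 14 were lower, none was higher and the median was -2.40. Foxj1, the factor of motile cilia, was read at 109, 175, 54, 139 and 130.4 CPM in callosum and 28.6, 40.8, 45.4 and 37 CPM in optic nerve (log2 fold change -1.68, SE 0.30, adjusted p = 8.4e-04), with library WT_CCg_685232 the lowest callosum library and still above the nerves. The cilium genes Hydin (-5.23 (SE 0.42)) and Dnah11 (-3.99 (SE 0.26)) were lower. Choroid plexus genes split into 5 higher and 5 lower of 14 tested, of 16 listed. Of the higher, Cldn1, Cldn2 and Aqp1 are shared with other epithelia or vessels. Kcnj13, a potassium channel shared with other epithelia, was higher (log2 fold change 6.61, SE 0.44, adjusted p = 8.2e-07), and Otx2, a factor of choroid plexus and eye, was lower (log2 fold change -4.63, SE 0.53, adjusted p = 3.5e-05). Ttr, the transthyretin gene that defines choroid plexus, was read at 1.72, 39.4, 1.06, 0.305 and 1.15 CPM in callosum and 0.695, 0.588, 1.34 and 0.237 CPM in optic nerve, high in callosum library WT_CCg_30 alone. It did not pass (log2 fold change -3.59, SE 1.45, adjusted p = 0.0649); the difference was -0.56 without library WT_CCg_30 and -3.90, past the threshold, without callosum library WT_CCg_717652.

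Among signalling pathways, retinoic acid, BMP and Wnt genes had more calls in optic nerve than in callosum. In the retinoic acid list 11 of 19 tested, of 22 listed, were higher, 1 was lower and the median was 1.35. Aldh1a2 (ENSMUSG00000013584.5, chr9:71215789-71296243), a synthesising enzyme of the meninges, was read at 0.265, 0.657, 3.23, 1.75 and 1.02 CPM in callosum and 287, 236, 214 and 177 CPM in optic nerve (log2 fold change 7.28, SE 0.49, adjusted p = 1.6e-06). Aldh1a1, the related enzyme, gave 3.55 (SE 0.21), the carrier Crabp2 gave 8.05 (SE 0.36) and the reductase Dhrs3 gave 2.18 (SE 0.12). The lower gene, the receptor gene Rxrg, was not called without any 1 of callosum libraries WT_CCg_685232, WT_CCg_717652 and WT_CCg_7198587 or optic nerve libraries WT_ON_700858 and WT_ON_701297, and 2 genes were lower without optic nerve library WT_ON_717652. Of 25 BMP genes 10 were higher and 2 were lower (1 without callosum library WT_CCg_685232 or without any 1 of optic nerve libraries WT_ON_700858, WT_ON_701297 and WT_ON_719857), and the median was 0.65. The ligands Bmp7 (5.17, 3.84, 7.21, 6.44 and 4.79 CPM in callosum and 213, 200.1, 143 and 145 CPM in optic nerve; log2 fold change 4.99, SE 0.21, adjusted p = 4.2e-08), Bmp5 (4.70 (SE 0.31)) and, outside the rule, Bmp6 (2.72 (SE 0.21)) were higher. Of 34 Wnt genes 20 were higher, 2 were lower and the median was 1.20. Besides Wnt6, the receptor gene Fzd10 (7.34 (SE 0.31)) and the ligand gene Wnt4 (3.09 (SE 0.21)) were higher, and Wnt7a, a ligand that supports brain vessels and precursors, was lower at 12.2, 12.8, 14.1, 14.2 and 18.4 CPM in callosum and 1.16, 1.01, 1.48 and 2.23 CPM in optic nerve (log2 fold change -3.29, SE 0.25, adjusted p = 1.6e-06; outside the rule). FGF and IGF genes were higher in 10 of 30 cases and lower in 4, with a median of 0.43; beside Igf2, the binding protein gene Igfbp2 (4.70 (SE 0.28)) and the growth factor gene Igf1 (2.87 (SE 0.17)) were higher. Guidance genes split evenly, 9 higher and 9 lower of 43. Sema3b (4.83 (SE 0.24)), Slit2 (1.95 (SE 0.16)) and Ntn1 (2.19 (SE 0.18)), secreted cues, were higher, and the Slit receptor gene Robo2 was lower (34.8, 34.6, 51, 37 and 44.3 CPM in callosum and 2.66, 3.53, 3.89 and 2.94 CPM in optic nerve; log2 fold change -3.63, SE 0.17, adjusted p = 8.6e-08). Meningeal and fibroblast genes, known sources of several of these ligands, were higher in the same libraries, and their part was not tested.

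Of 13 mitochondrial transcripts none was called, with a median of 0.12, and 18 genes of ER stress had 2 higher and 2 lower. Of 11 cytosolic heat shock genes 2 were higher and 1 lower, or 3 lower without callosum library WT_CCg_685232 and 2 without optic nerve library WT_ON_719857. Among 23 genes of palmitoyltransferases and their partners none was higher and 3 were lower, where 13% and 13.1% of all genes were. The lowest was the accessory protein gene Golga7b (log2 fold change -3.81, SE 0.50, adjusted p = 1.4e-04), at -4.41 without optic nerve library WT_ON_717652. Neuronal transcripts were higher in the same callosum libraries, and their part in the fall of Golga7b was not tested.

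Hormone genes known from the pituitary and the hypothalamus were read in the nerves. Growth hormone, Gh (ENSMUSG00000020713.6, chr11:106300271-106301865), was read at 0, 0.354, 0, 0 and 0.041 CPM in callosum and 95.4, 36, 94.6 and 26.2 CPM in optic nerve, present in all 4 nerves and highest in WT_ON_700858 and WT_ON_717652 (log2 fold change 9.66, SE 0.76, adjusted p = 4.4e-06; 11.88 without callosum library WT_CCg_30). The other pituitary hormone genes, outside the rule, were Prl, with 0 counts over the callosum libraries and 720 over the nerves, at least 282-fold higher, and Pomc (0.398, 1.26, 0.906, 0.99 and 1.68 CPM in callosum and 3.63, 1.93, 23.3 and 5.22 CPM in optic nerve; log2 fold change 2.99, SE 0.70, adjusted p = 0.00508; 1.74 without optic nerve library WT_ON_717652). Cga was read at 57.7 CPM in optic nerve library WT_ON_717652, at 0.0949 to 0.617 CPM in the other nerves and at 0 in every callosum library. The hypothalamic peptide gene Avp, which codes for vasopressin, was at 0 in every callosum library and at 1.62, 4.5, 107 and 38.9 CPM in the nerves, at least 1402-fold higher, or at least 555-fold without optic nerve library WT_ON_717652; the fitted difference was 12.75 (SE 2.64, adjusted p = 0.00864), and 11.41 without optic nerve library WT_ON_717652. Oxt, which codes for oxytocin, gave 0.265, 0.0505, 0, 0.0381 and 0.041 CPM in callosum and 2.66, 1.68, 32.6 and 41 CPM in optic nerve (log2 fold change 8.12, SE 1.30, adjusted p = 5.0e-04; 9.03 without callosum library WT_CCg_28 and 7.42 without optic nerve library WT_ON_719857). Both peptide genes were highest in nerves WT_ON_717652 and WT_ON_719857, and the hypothalamus and pituitary lie beside the chiasm where the nerves end; whether such tissue was carried along was not tested. With limma-voom, Avp, Oxt and Pomc were not called (adjusted p = 0.084, 0.0951 and 0.106), and with edgeR Avp was not called without the filter on low counts (0.0773) or against the callosum libraries with long numbers (0.0551). In a limma fit over all 20 libraries with the library number as a block, Gh, Prl, Avp, Oxt and Pomc were not called. The values of that fit are given with the processing settings at the end.

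Blood and muscle genes differed too. All 6 tested red blood cell genes, of 8 listed, were higher in optic nerve, with a median of 2.99. Hbb-bs, a beta globin gene with a near-identical neighbour, was read at 99.6, 59, 58.1, 92.5 and 176 CPM in callosum and 587, 538, 499 and 1571 CPM in optic nerve (log2 fold change 3.04, SE 0.45, adjusted p = 2.8e-04), with library WT_ON_719857 the highest nerve; without it the difference was 2.45. Hba-a1 gave 3.21 (SE 0.47). Of 7 tested skeletal muscle genes, of 15 listed, 4 were higher and none was lower. The summed level of the list was 8.02 to 12.5 CPM in callosum and 14.5 to 38.6 CPM in optic nerve. Whether extraocular muscle was carried along was not tested. Acta1, the skeletal actin gene, was read at 0.597, 0.859, 2.76, 1.41 and 3.4 CPM in callosum and 0.193, 1.89, 0.179 and 0.806 CPM in optic nerve and overlapped (log2 fold change -1.25, SE 0.73, adjusted p = 0.186). It gave -2.25, past the threshold, without optic nerve library WT_ON_701297. Of 10 tested Schwann cell genes, of 12 listed, 2 were higher and 3 lower. None of 6 tested pigment cell genes, of 12 listed, was called, and leaving out some single libraries gave 1 call in either direction. Of 4 tested adipocyte genes, of 10 listed, 1 was higher.

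Elp6, which codes for a subunit of the Elongator complex, split the callosum libraries. It was read at 4446, 4172, 11.9, 14.2 and 18.2 CPM in callosum and 10, 10.5, 14.7 and 13.9 CPM in optic nerve: the 2 libraries with 2-digit numbers were high and the other 7 libraries were between 10 and 18.2 CPM. The groups overlapped, the fitted difference was -7.14 (SE 2.12, adjusted p = 0.0179), and it was -0.30 (adjusted p = 0.242) against the 3 callosum libraries with long numbers.

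**Figure D3:**
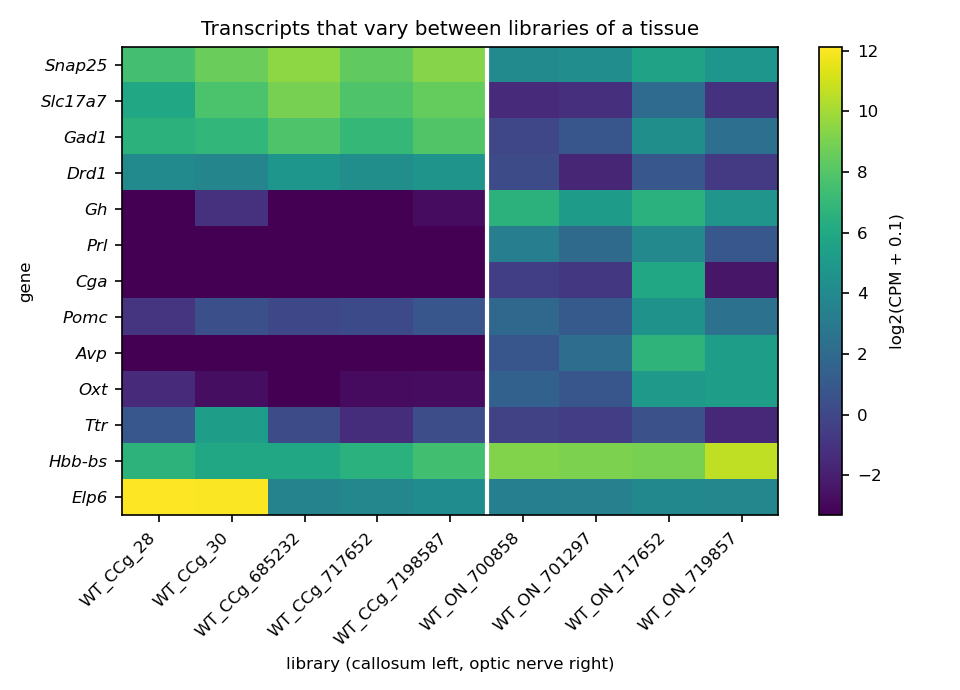
Level of 13 genes, as log2(CPM + 0.1) in colour, in each wild-type library (columns, callosum left of the white line and optic nerve right of it). Neuronal genes are brighter in callosum and, within the nerves, in library WT_ON_717652; Elp6 is bright in callosum libraries WT_CCg_28 and WT_CCg_30 alone, Ttr in callosum library WT_CCg_30, and Hbb-bs brightest in optic nerve library WT_ON_719857.

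The same comparison in the 11 knockout libraries, which share no library with the wild type, called 2254 of 15784 genes (14.3%) higher in optic nerve and 2425 (15.4%) higher in callosum. Of the genes higher in wild-type optic nerve, 1869 were called in the same direction in knockout, 91.5% of the wild-type calls and 82.9% of the knockout calls. For those higher in callosum the number was 1928, or 93.6% and 79.5%. Across the 15593 genes tested in both, the log2 fold changes correlated at r = 0.97, as a description over genes, which are not independent replicates. Klk6 gave 5.64 in knockout, Gfap 3.56, Col1a1 6.43, Wnt6 10.19, Meis2 -4.27 and Drd1 -4.42. The sign was opposite in 1 of the genes higher in wild-type nerve and in 3 of those higher in wild-type callosum; 37 and 15 could not be tested in knockout. Otx2 gave -0.53 in knockout and was not called there. The difference between the 2 comparisons was tested for all 16440 genes, and edgeR, DESeq2 and limma-voom each called 0 of them at an adjusted p under 0.05, while 1124 had an unadjusted p under 0.05 by edgeR. Cholesterol genes had 6 of 25 members called higher in knockout, against 2 in wild type, and the core myelin genes 4 of 32 against 2; the interaction test called none of them.

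**Figure D4:**
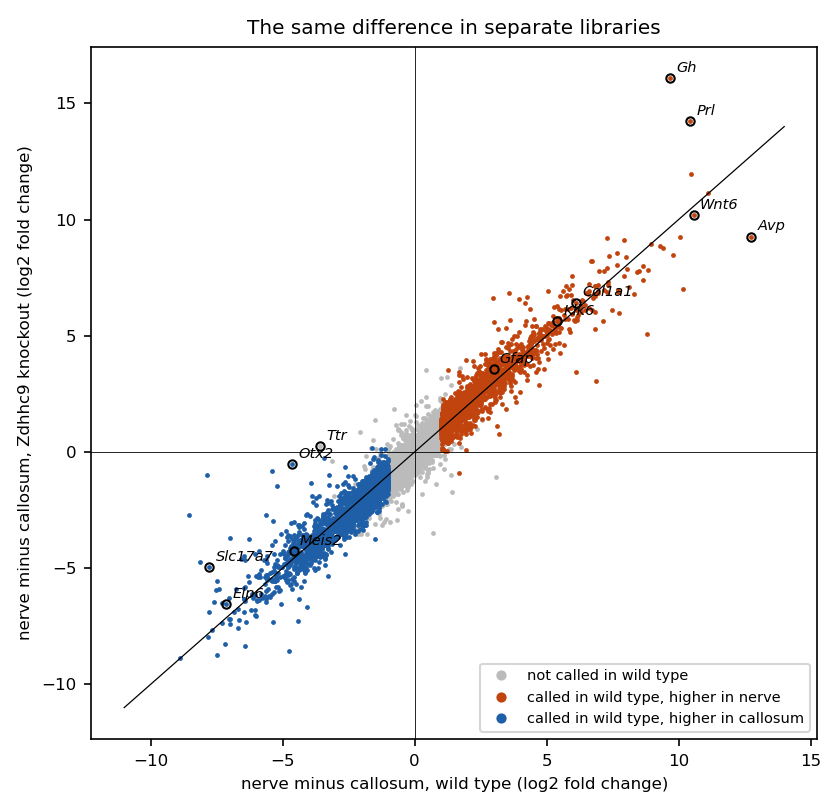
Log2 fold change of optic nerve against callosum in knockout libraries (vertical) and in wild-type libraries (horizontal) for the 15593 genes tested in both, each point a gene, with the line of equal values and colours for the wild-type calls. Most points follow the line, and Gh, Prl, Otx2 and Ttr are among those off it.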

How the data were processed

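RNA from wild-type optic nerve (4 libraries) and callosum (5), and from 11 Zdhhc9 knockout libraries, was sequenced after an Illumina stranded mRNA preparation, per the labels. The authors deposited estimated counts of reads per gene, 46517 genes in 1 table, made on build mm10 of the mouse genome, per the submitters' processing notes. Neither the version and annotation of the quantifier nor its strand setting is given in the sources used here. The counts are not all whole (30.136% of values above 0 were, within 1e-06) and were rounded. Symbols and coordinates (mm10, which is GRCm38) came from the GENCODE mouse annotation, which matched 46005 genes; 59 symbols occur more than once. Reads of overlapping, antisense or near-identical genes may be split between them. No pair of libraries held identical values.

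Genes passed a filter on low counts (edgeR's filterByExpr, minimum count 10, minimum total 15), libraries were scaled by TMM, and CPM are on that scale. Tissues were compared by edgeR's quasi-likelihood test (edgeR 4.0.16, R 4.3.3, two-sided), with Benjamini-Hochberg adjustment over all genes tested, in wild type alone and in knockout alone; standard errors are the fold change over the root of F. The interaction was fitted over all 20 libraries. Every adjusted p printed is from edgeR unless another tool is named. limma 3.58.1, DESeq2 1.42.0, other scalings and filters, and fits leaving out each library were alternatives. The filter was run anew where libraries were left out, so the list members tested there can differ. The code was tested on simulated counts. Intervals of count ratios are 95% and exact, and floors are 3 counts over the group; both cover counting error only.

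Genes were named by rule: the 12 largest differences each way among called genes with mean log2 CPM of at least 3 and no overlap (predicted genes, pseudogenes and sex-linked genes of the sex check left out), the 5 largest each way at 8 or more, up to 4 members with the smallest p in each described list, and a set of markers. Others are named as outside the rule, and some genes that the rule takes are not reported here. The 56 lists and the members were chosen with earlier results of these data known. Promoters came from RefSeq (GRCm38.p6). Knockout against wild type was not analysed here.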

Additional observations from a re-analysis of the deposited data

Results flagged for a closer look

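In 34 of 466 groups of 4 or 5 libraries tested, 1 library lay far from the others by Dixon's test, which chance gives in about 1 group in 20. Causes were not tested.

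Optic nerve library WT_ON_717652 held the highest nerve value of neuronal and pituitary genes. These were Slc17a7 (4.07 CPM), Ankrd63 (0.537), Dlgap2 (0.581), Sst (2.19), Camk2a (25.4), Cga (57.7) and Pomc (23.3). Optic nerve library WT_ON_719857 was highest for the globin genes Hbb-bs (1571 CPM) and Hba-a1 (671), for the summed red blood cell genes (4347) and for Casr (0.617). It was lowest for Foxd1 (33.2 CPM), F13a1 (14.3), and the summed optic stalk factors (462), border-associated macrophage genes (252), small leucine-rich proteoglycans (1125) and mitochondrial transcripts (35314). Optic nerve library WT_ON_700858 was highest for Aspg (111 CPM).

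Callosum library WT_CCg_30 was highest for Ttr (39.4 CPM), Gh (0.354), Slc26a7 (0.202) and Cd59a (8.64). Callosum library WT_CCg_7198587 was highest for Egr4 (27 CPM) and Meis2 (146), held the 1 callosum count of Prdm6 and Mcpt4 (0.041 each), and was lowest for Nsdhl (22). Callosum library WT_CCg_685232 was highest for Slc47a1 (0.158 CPM) and lowest for S100a6 (11.3) and Otx2 (1.5). Callosum library WT_CCg_28 was highest for Oxt (0.265 CPM) and the summed pigment cell genes (25) and lowest for H2-Eb1 (0.0663). Callosum library WT_CCg_717652 was highest for Nid1 (15.8 CPM).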

How the results depend on the processing

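The counts of genes called stayed within 1.5 times under every setting run. Genes higher in optic nerve ran from 1428 (a test against a log2 fold change of 1) to 2289 (no filter on low counts), and those higher in callosum from 1419 (the same test) to 2579 (scaling to oligodendrocyte transcripts). Leaving out 1 library gave 1973 to 2110 and 1924 to 2165. Between 69.4% and 100% of the calls were shared with each setting, and no called gene changed sign. Of the named genes' values, 3672 kept their direction and side of the threshold, 46 lost a call, 14 gained one and 4 changed sign, all without a call: Mag (-0.19) and Aldh1l1 (-0.23) scaled to oligodendrocyte transcripts, and Mag (-0.02) and Aldh1l1 (-0.01) without optic nerve library WT_ON_719857. Leaving out 1 library gave -0.02 to 0.15 for Mag and -0.01 to 0.11 for Aldh1l1. The calls of Avp, Oxt, Pomc and Elp6 were also lost under limma-voom (adjusted p = 0.084, 0.0951, 0.106 and 0.111), and those of Avp and Elp6 without the filter (edgeR adjusted p = 0.0773 and 0.0598).

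Same-numbered libraries of the 2 tissues did not deviate together (wild type r = -0.10 for its 1 shared number, knockout r = -0.04, -0.23 and 0.22). Differently numbered libraries gave r from -0.35 to 0.35, so these few values cannot show whether same-numbered libraries came from the same mouse. The numbers were not taken as pairs in the main fits. WT_CCg_7198587 and WT_ON_719857, whose numbers differ by 1 inserted digit (r = 0.10), were not counted as sharing one. With the number as a block over all 20 libraries (limma, 4 shared numbers, block correlation -0.112), 2148 and 2143 genes were called in wild type, and Avp, Gh, Prl, Oxt, Pomc, Neurod2 and Elp6 were not (adjusted p = 0.124, 0.165, 0.247, 0.192, 0.287, 0.0568 and 0.223), at log2 fold changes of 8.60, 9.97, 7.81, 6.75, 2.26, -7.50 and -3.76. In the 11 knockout libraries, with 3 shared numbers, the block gave 2268 and 2374 calls.

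Callosum and optic nerve differ in dissection as well as tissue, and the 2 cannot be told apart. With 4 and 5 libraries small differences are not detectable in every gene, and a gene filtered out for low counts is not shown to be absent.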
